A study of Homo sapiens with 6 samples.

Results

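Leukocyte integrins and their ligand ICAM1 were examined in LPS-stimulated macrophages after silencing of the circular RNA hsa_circ_0004287. The 10 genes described are ITGAL, ITGAM, ITGAX, ITGB2, ITGAV, ITGB3, ITGB1, ITGA5, ITGB8 and ICAM1. They were chosen by name, and all 10 were found among the 19976 genes of the deposited table. All 10 also passed the filter on low counts, as 12469 genes did. The cells were THP-1, a human monocytic leukaemia line, made macrophage-like by the phorbol ester PMA (50 ng/ml, 48 h). One group then received 200 nM of siRNA against the circular RNA for 48 h (circ siRNA, 3 libraries). The other received 200 nM of a negative-control siRNA for 48 h (control siRNA, 3 libraries). Both groups were also stimulated with 200 ng/ml of lipopolysaccharide (LPS) for 3 h, so the libraries hold no unstimulated cells and no effect of LPS can be read from them. Poly-A RNA was sequenced. The circular RNA itself was not analysed here, so the knockdown could not be checked, and how many siRNA sequences were used is not given in the sources used here.

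Integrins are adhesion receptors made of 1 alpha and 1 beta chain. The beta-2 chain ITGB2 (CD18) pairs in leukocytes with ITGAL (CD11a, giving LFA-1), ITGAM (CD11b, giving Mac-1 or complement receptor 3) or ITGAX (CD11c, giving complement receptor 4). LFA-1 and Mac-1 bind ICAM1, an immunoglobulin-type adhesion molecule that inflammatory signals induce through NF-kB. ITGB1 pairs with ITGA5 into the fibronectin receptor, and ITGAV pairs with ITGB3 or ITGB8, among others, into receptors for vitronectin or for latent TGF-beta. Macrophages use these receptors to leave vessels, to spread on matrix and to take up opsonised particles.

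The libraries held 14793902 to 16736972 counts. Their largest differences did not follow the siRNA: the first principal component of log2 CPM (each count relative to its library's TMM-scaled total), with 53.3% of the variance, set circ library 3 (-38.4) and control library 1 (-23.2) apart from the other 4 libraries (-1.44 to 30.3). On the second component, with 17% of the variance, the circ libraries (18.45, 18.59 and -2.04) lay above the control libraries (-13.5, -13.5 and -7.99). Over all 12469 genes, longer genes tended to lie above the average of all 6 libraries in this pair (Spearman's rho of deviation and length across genes 0.385 and 0.467), against -0.437 to 0.0489 in the other 4. Results are therefore given with and without these 2 libraries. Of 8 macrophage markers, SPI1, CSF1R, CD14 and CD163 were present at 65.1 to 889 CPM as group means. LYZ averaged 4.83 CPM with circ siRNA and 5.03 CPM with control siRNA, and CD68, FCGR3A and MRC1 stayed at or below 0.736 CPM in every library. CD68 shares 85.8% of its exon bases with other annotated genes in GENCODE 29, and how the counting treated shared bases is not given in the sources used here. For CD68 a low value is thus no measure of absence. FCGR3A and MRC1 share 0% of their exon bases with other annotated genes, and the reason for their low values was not tested. Marker sums are given relative to deposited library totals, without the TMM scaling used for single genes. On that scale the macrophage markers summed to 1370 to 1920 CPM with circ siRNA and 1840 to 2020 CPM with control siRNA. Neutrophil markers, another beta-2 integrin cell type, summed to 41.3 to 53 CPM of deposited totals with circ siRNA and 34.6 to 40.6 CPM with control siRNA. On the TMM scale the sums of the groups overlap. Most of each sum was CSF3R (35.7 ± 2.78 CPM with circ siRNA, 29.02 ± 1.69 CPM with control siRNA, TMM scale, SD, n = 3 each). ELANE came next, with 7.77, 9.33 and 11.2 CPM with circ siRNA and 5.10, 11.2 and 7.97 CPM with control siRNA. CEACAM8 had no count in any library, FCGR3B and MPO stayed at or below 0.301 CPM and CXCR2 at or below 0.833 CPM. Of the endothelial markers, PECAM1 gave most of the sum, which was 297 to 388 CPM of deposited totals with circ siRNA and 294 to 364 CPM with control siRNA. VWF stayed at or below 2.88 CPM, and CDH5, KDR and TEK at or below 0.513 CPM, in every library. Without control library 1 and circ library 3, CD163 was called higher (log2 fold change 0.67) and SPI1 and PPBP were called lower (edgeR adjusted p under 0.05). In that fit 14.8% of all tested genes were called. The part of any marker in the results was not tested.

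Per length, ITGB2 was the most abundant of the 10 genes and ITGAL the least. On the FPKM scale (counts scaled to gene length and library total, as deposited), ITGB2 had 801, 804 and 701 in circ libraries 1 to 3, against 816, 791 and 849 in control libraries 1 to 3. This placed it above 99.6% of tested genes. Mean FPKM over the 6 libraries was 794 for ITGB2, 266 for ICAM1, 184 for ITGA5, 118 for ITGAX and 97.8 for ITGB1. It was 21.2 for ITGAM, 20.2 for ITGAV, 11.8 for ITGB3, 7.11 for ITGB8 and 3.67 for ITGAL. The 10 genes thus fell into an abundant and a sparse group, with ITGB1 at 72.6 FPKM or more and ITGAM at 29.2 FPKM or less in every library. Some neighbours in the order of FPKM did not separate: ITGAM exceeded ITGAV in 3 of 6 libraries and ITGAX exceeded ITGB1 in 5 of 6. ICAM1 exceeded ITGA5, ITGAV exceeded ITGB3 and ITGB3 exceeded ITGB8 within each of the 6 libraries, although their ranges over libraries overlapped.

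**Figure D1:**
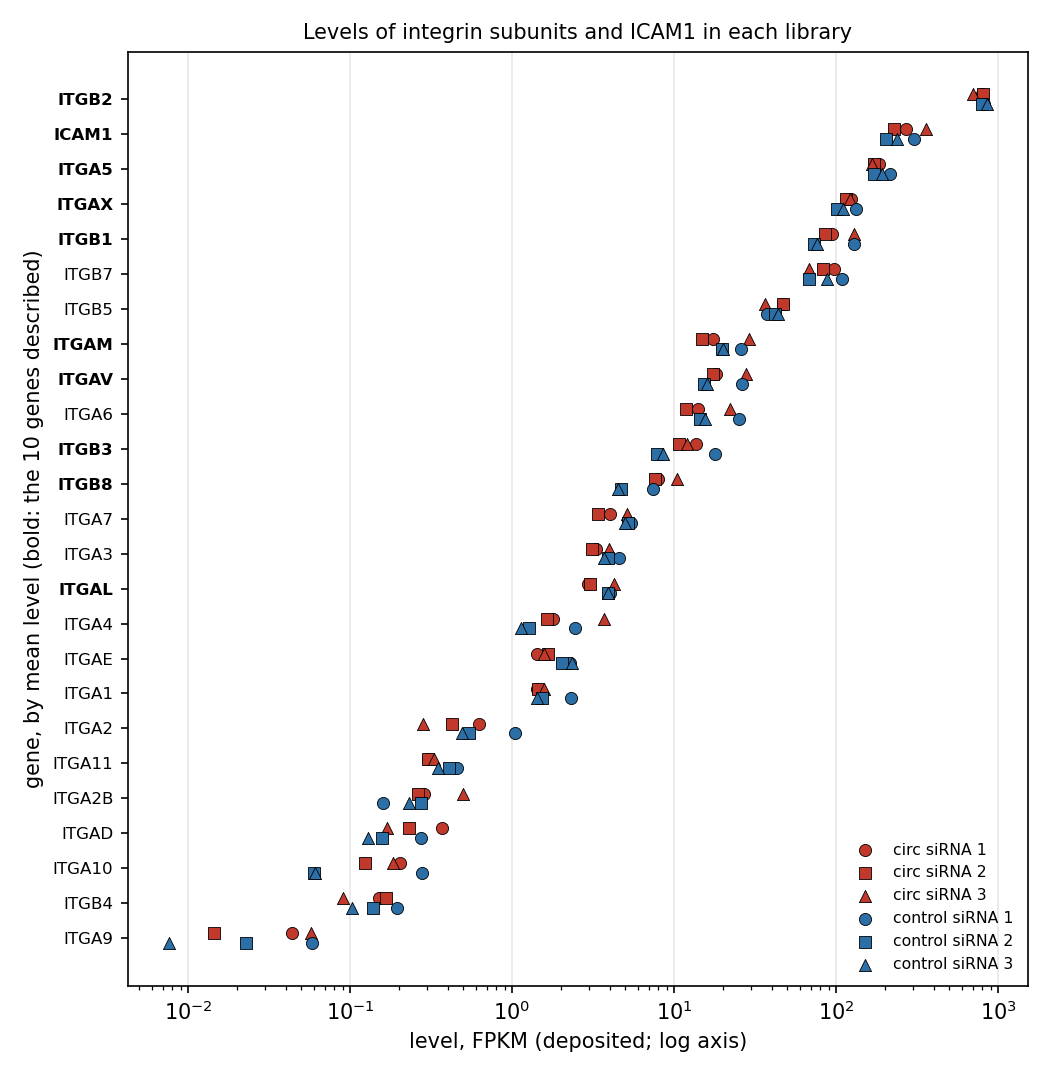
Level in FPKM (log axis) of ICAM1 and of the integrin subunits with a value above 0 in every library, each point 1 library. ITGB2 lies at 701 to 849 FPKM, ICAM1, ITGA5, ITGAX and ITGB1 between 72.6 and 359 FPKM, and ITGAL at 2.93 to 4.27 FPKM.

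Of the 26 integrin subunit genes listed, the 9 described here made up 88.0%, 88.9% and 89.3% of the summed integrin FPKM with circ siRNA and 87.8%, 89.5% and 88.8% with control siRNA. ITGB2 alone gave 75.5%, 77.5% and 73.2% of the FPKM of all beta chains with circ siRNA, against 73.1%, 80.2% and 79.3% with control siRNA. Outside the 9, ITGB7, which pairs with ITGA4 or ITGAE, had a mean of 85.2 FPKM and ITGB5, an ITGAV partner, 42.3 FPKM. The ITGB7 partners were low, with ITGA4 at 1.99 and ITGAE at 1.89 FPKM. ITGA2B, the platelet partner of ITGB3, had 0.285 FPKM, and ITGA8 had no count in any library. The platelet genes GP9 and PF4 were at or below 0.26 CPM, whereas the platelet chemokine gene PPBP had 172, 186 and 22.8 CPM with circ siRNA and 140.2, 236 and 212 CPM with control siRNA.

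No gene of the 10 passed the threshold between circ siRNA and control siRNA (edgeR quasi-likelihood test, Benjamini-Hochberg adjusted p under 0.05 over all genes). In that test 0% of tested genes were called higher and 0.00802% lower. DESeq2 and limma-voom also called 0 of the 10, where DESeq2 called 0.467% of genes higher and 0.174% lower (0.642% in all) and limma-voom 0%. The 10 were also uncalled without the filter on low counts (0.0122% of genes called, all lower), with a minimum count of 30 (0.009%, all lower), and with offsets for gene length (0.00802% higher and 0.0401% lower, 0.0481% in all). The log2 fold changes, circ siRNA minus control siRNA, were positive for 6 and negative for 4 of the 10, with a median of 0.06 against -0.01 over all tested genes. One gene, ITGB8, had an unadjusted edgeR p under 0.05, as 6.45% of tested genes did. It was also the only one of the 10 whose groups did not overlap, with every circ library above every control library, a pattern seen in 6.64% of tested genes. A lower value in all circ libraries was found for 0 of the 10 and for 5.87% of tested genes.

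**Figure D2:**
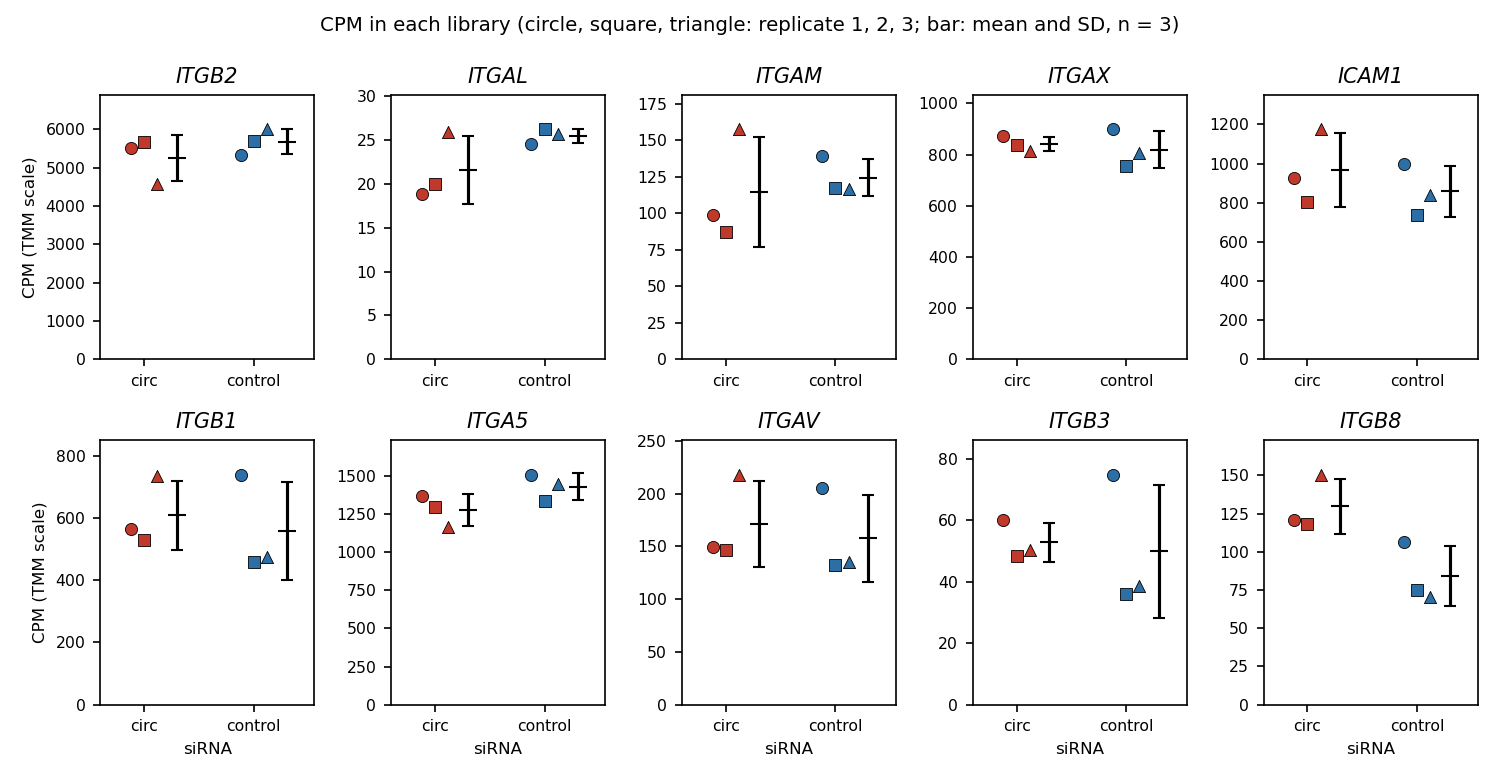
CPM on the TMM scale of each of the 10 genes in each library (axes start at 0), with the mean and SD of 3 libraries beside the points; circ siRNA stands left of control siRNA. The groups are separate only for ITGB8, at 118 to 150.4 CPM with circ siRNA and 70.5 to 106 CPM with control siRNA.

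The beta-2 chain and its 3 alpha partners gave no common direction. ITGB2 lies on chromosome 21, 44885953 to 44931989 (GRCh38, minus strand). Its level was 5503, 5674 and 4563 CPM in circ libraries 1 to 3, against 5335, 5705 and 5999 CPM in control libraries 1 to 3. The groups overlapped, and circ library 3 was the lowest of the 6. Its log2 fold change was -0.11 with an SE of 0.14 (95% interval -0.44 to 0.21; edgeR adjusted p = 0.894).

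The alpha partners lie on chromosome 16 on the plus strand. ITGAM (31259967 to 31332892) and ITGAX (31355134 to 31382997) are 22241 bases apart, and ITGAD follows 10337 bases after ITGAX. ITGAL (30472719 to 30523185) ends 736781 bases before ITGAM. The neighbours differed in level and in how much the libraries spread. ITGAX had 873, 836 and 816 CPM with circ siRNA and 898, 754 and 807 CPM with control siRNA. It was the steadiest of the 10, with an SD over the 6 libraries of 0.089 on the log2 scale, a spread above that of only 5.49% of tested genes. Its log2 fold change was 0.04 with an SE of 0.12 (95% interval -0.24 to 0.32; edgeR adjusted p = 0.952), so a change of 1 on the log2 scale lay outside the interval.

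ITGAM had 98.7, 87.3 and 158 CPM in circ libraries 1 to 3, against 139, 118 and 117 CPM in control libraries 1 to 3. Circ library 3 was the highest of all 6 and circ libraries 1 and 2 the lowest. For ITGAM the log2 fold change was -0.12 with an SE of 0.22 (95% interval -0.62 to 0.38; edgeR adjusted p = 0.921). Without both circ library 3 and control library 1 it was -0.33, and the gene was called lower (edgeR adjusted p = 0.018, 2 libraries per group). Without circ library 2 it was 0.04, so the direction rested on single libraries. ITGAX reads exceeded ITGAM per length 7.11, 7.70 and 4.16 times in the circ libraries and 5.18, 5.15 and 5.56 times in the control libraries.

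ITGAL had 18.8, 19.9 and 25.96 CPM with circ siRNA and 24.5, 26.2 and 25.6 CPM with control siRNA. Circ libraries 1 and 2 were below all control libraries and circ library 3 lay among them. Its log2 fold change was -0.24 with an SE of 0.15 (95% interval -0.59 to 0.11; edgeR adjusted p = 0.870), and -0.42 without both libraries that stood apart (edgeR adjusted p = 0.023). Of the T and NK cell markers, whose cells also carry ITGAL, CD2 had no count in any library, and CD3D, CD3E and CD8A were at or below 0.31 CPM. The 6 markers, mostly NKG7 and GNLY, summed to 3.65 to 4.24 CPM of deposited totals with circ siRNA and 3.07 to 6.13 CPM with control siRNA.

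As a share of the FPKM of ITGAL, ITGAM and ITGAX together, ITGAX took 83.6% ± 4.5 with circ siRNA and 81.7% ± 0.597 with control siRNA (SD, n = 3 each). ITGAM took 14.1% ± 4.17 with circ siRNA and 15.4% ± 0.566 with control siRNA. ITGAL took 2.36% ± 0.363 with circ siRNA and 2.82% ± 0.329 with control siRNA. All these shares overlapped between the groups. The summed FPKM of the alpha chains was 0.179, 0.165 and 0.221 times that of ITGB2 with circ siRNA and 0.2, 0.158 and 0.159 times with control siRNA.

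The promoter of ITGAM in RefSeq (GRCh38.p14, chr16:31259725-31260024, plus strand) is shown because this gene marks the myeloid lineage and differed most between libraries among the alpha partners of ITGB2. Capitals mark matches to GAGGAA, the core of sites of the myeloid factor PU.1 (SPI1), and to GGGCGG, the Sp1 GC box, each on either strand.
ITGAM: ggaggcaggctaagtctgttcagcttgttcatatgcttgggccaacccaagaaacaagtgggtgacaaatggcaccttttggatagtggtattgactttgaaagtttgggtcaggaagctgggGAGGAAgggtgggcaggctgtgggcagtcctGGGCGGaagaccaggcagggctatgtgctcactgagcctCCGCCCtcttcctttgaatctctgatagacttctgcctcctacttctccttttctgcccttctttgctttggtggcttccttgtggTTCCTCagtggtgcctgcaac
GAGGAA started 127 bases before the transcription start and 30 bases after it, and GGGCGG 96 and 57 bases before it. These words occur in 27.6% and 44.6% of the 27305 promoters of the same length. Promoters of 6 of the 10 genes were found in the RefSeq table.

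ICAM1, the ligand, was slightly higher on average and not called. It lies on chromosome 19, 10271093 to 10286615 (plus strand), and 23.6% of its exon bases overlap annotated genes on the opposite strand. Its level was 928, 801 and 1174 CPM in circ libraries 1 to 3, against 996, 736 and 840.1 CPM in control libraries 1 to 3. Circ library 3 and control library 1 were the 2 highest, and the groups overlapped. For ICAM1 the log2 fold change was 0.17 with an SE of 0.18 (95% interval -0.24 to 0.59; edgeR adjusted p = 0.889). Leaving out each library in turn gave 0.01 to 0.30.

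The ICAM1 promoter (RefSeq, GRCh38.p14, chr19:10270870-10271169, plus strand) is shown because ICAM1 was the second most abundant of the 10 genes per length in these LPS-treated cells and is a known NF-kB target. Capitals mark GGAAATTCC, the word of the known NF-kB site of ICAM1, GGGCGG and the TATA box word TATAAA.
ICAM1: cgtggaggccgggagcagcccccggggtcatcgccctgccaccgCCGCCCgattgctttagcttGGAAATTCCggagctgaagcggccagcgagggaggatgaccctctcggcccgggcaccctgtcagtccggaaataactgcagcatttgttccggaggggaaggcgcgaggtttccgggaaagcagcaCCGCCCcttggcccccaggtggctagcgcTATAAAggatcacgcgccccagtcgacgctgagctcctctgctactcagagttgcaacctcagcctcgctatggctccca
GGAAATTCC started 186 bases before the transcription start, and this word was in 0.472% of promoters. Because the word was taken from the ICAM1 site, its match here was fixed in advance and is no finding. TATAAA started 30 bases before it and was in 12.0% of promoters. GGGCGG, read on the opposite strand, started 206 and 59 bases before it.

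Of the other ICAM family genes, ICAM5 had 79.4, 75.5 and 62.1 CPM with circ siRNA and 90.4, 85.5 and 89.3 CPM with control siRNA, and its groups did not overlap (log2 fold change -0.29, SE 0.13; edgeR adjusted p = 0.774). Lower values without overlap were found in 5.87% of tested genes. ICAM2 averaged 1.46 and ICAM3 0.787 CPM with circ siRNA, against 1.20 and 0.845 CPM with control siRNA. ICAM4 had no count in any library, but all of its exon bases overlap a gene on the opposite strand, as do 71.2% of those of ICAM3.

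The matrix-binding chains ITGB1 and ITGAV spread together across the libraries. ITGB1 (chromosome 10, 32900318 to 33005792, minus strand) had 564, 528 and 735 CPM in circ libraries 1 to 3, against 739, 458 and 474 CPM in control libraries 1 to 3. ITGAV (chromosome 2, 186590056 to 186680901, plus strand) had 149, 146 and 218 CPM in circ libraries 1 to 3, against 206, 132 and 135 CPM in control libraries 1 to 3. In both, circ library 3 and control library 1 stood above the other 4. The same 2 libraries were also the highest for ITGAM and ICAM1, making 4 of the 10 genes, and for 23.4% of tested genes. They were the 2 lowest for ITGB2 alone, as for another 23.4% of tested genes.

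The log2 fold changes were 0.13 for ITGB1 (SE 0.22, 95% interval -0.37 to 0.63; edgeR adjusted p = 0.918) and 0.12 for ITGAV (SE 0.22, 95% interval -0.40 to 0.63; edgeR adjusted p = 0.925). Without circ library 3 they were -0.03 and -0.10. Without control library 1 as well they were 0.23, called higher (edgeR adjusted p = 0.0479), and 0.15, not called (0.190). ITGA5, the ITGB1 partner for fibronectin, behaved otherwise. This gene (chromosome 12, 54395261 to 54419266, minus strand) had 1368, 1298 and 1165 CPM with circ siRNA and 1509, 1335 and 1451 CPM with control siRNA. The groups overlapped between circ library 1 and control library 2, and its log2 fold change was -0.16 with an SE of 0.13 (95% interval -0.45 to 0.12; edgeR adjusted p = 0.885). Per length, ITGA5 exceeded ITGB1 by 1.98, 2 and 1.29 times in the circ libraries and 1.66, 2.37 and 2.49 times in the control libraries.

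**Figure D3:**
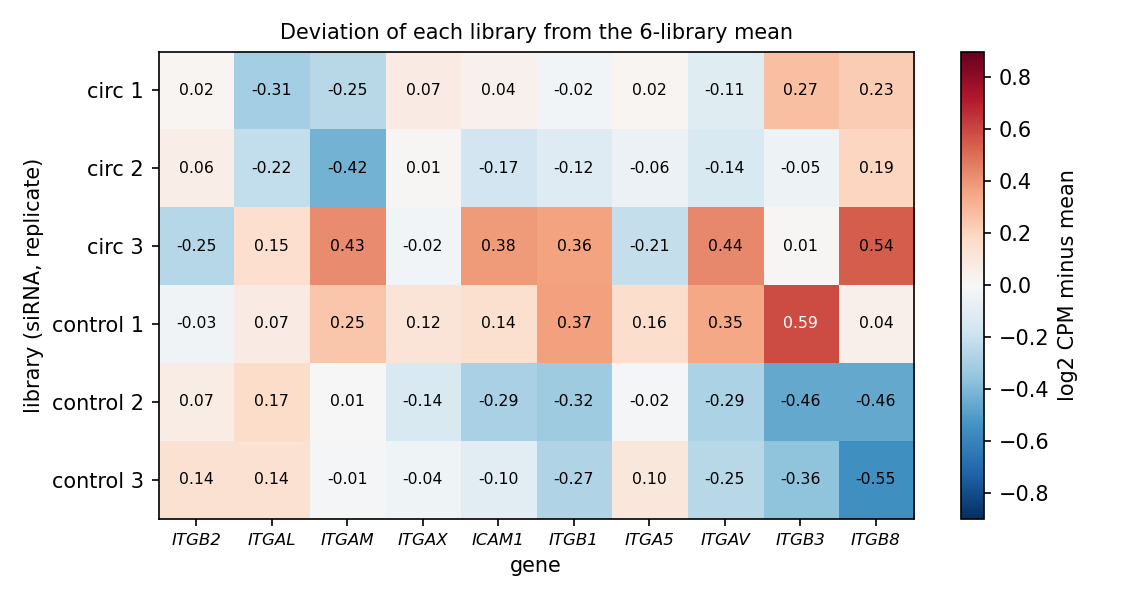
Log2 CPM of each gene (columns) in each library (rows) minus the mean of the 6 libraries; red is above and blue below the mean. For ITGB1 and ITGAV, circ library 3 and control library 1 stand at 0.35 to 0.44 and the other 4 libraries below 0, while the ITGB8 column separates circ from control libraries.

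ITGB3, the beta-3 chain of the vitronectin receptor, lies on chromosome 17, 47253846 to 47311816 (plus strand). It had 60.0, 48.2 and 50.2 CPM in circ libraries 1 to 3, against 74.8, 36.1 and 38.7 CPM in control libraries 1 to 3. Control library 1 was the highest of all and control libraries 2 and 3 the lowest, a gap of 1.00 on the log2 scale within 1 group. Its log2 fold change was 0.08 with an SE of 0.27 (95% interval -0.54 to 0.70; edgeR adjusted p = 0.953). This is the widest interval of the 10. Without circ library 3 and control library 1 it was 0.54, and ITGB3 was called higher (edgeR adjusted p = 0.00736). It was -0.10 without control library 2, -0.07 without control library 3, -0.02 without circ library 1 and 0.5 without control library 1. A same-strand gene listed separately, AC068234.1, shares 51.6% of the exon bases of ITGB3 and had no count in any library, so the level of ITGB3 is uncertain.

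ITGB8 was the member with the largest difference, although it did not pass the threshold. Its protein joins ITGAV into a receptor that releases active TGF-beta from its latent complex. The gene lies on chromosome 7, 20330702 to 20415754 (plus strand). It had 121, 118 and 150.4 CPM in circ libraries 1 to 3, against 106, 75.1 and 70.5 CPM in control libraries 1 to 3. All circ libraries lay above all control libraries, with control library 1 nearest to them. The mean was 129.8 ± 17.9 CPM with circ siRNA and 84.0 ± 19.5 CPM with control siRNA (SD, n = 3 each). This gave a log2 fold change of 0.63 with an SE of 0.18 (95% interval 0.21 to 1.05; unadjusted p = 0.0088, edgeR adjusted p = 0.550). The DESeq2 adjusted p was 0.196. With offsets for each library's trend with gene length, which matters for a gene of 15156 listed bases, the log2 fold change was 0.54 (edgeR adjusted p = 0.130). Leaving out each library in turn gave 0.51 to 0.84 with 0 calls.

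The ITGB8 promoter (RefSeq, GRCh38.p14, chr7:20330650-20330949, plus strand) is shown because this was the 1 gene of the 10 whose groups did not overlap. Capitals mark GGGCGG, here on the opposite strand as CCGCCC.
ITGB8: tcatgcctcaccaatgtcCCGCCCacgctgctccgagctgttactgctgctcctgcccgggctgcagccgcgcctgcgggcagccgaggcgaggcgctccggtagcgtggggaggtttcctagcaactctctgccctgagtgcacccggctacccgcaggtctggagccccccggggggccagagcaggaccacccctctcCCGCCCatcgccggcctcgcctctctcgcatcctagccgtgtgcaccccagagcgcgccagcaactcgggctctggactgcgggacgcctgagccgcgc
GGGCGG started 232 and 49 bases before the RefSeq transcription start. That start lies downstream of the listed gene start, 20330702, so the nearer match falls inside the listed gene. The NF-kB word of ICAM1, the PU.1 and TATA words named above and the AP-1 word TGANTCA (7.76% of promoters) had no match in this window. Other forms of NF-kB sites were not searched.

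Among the beta chains ITGB1, ITGB2, ITGB3 and ITGB8, ITGB8 took 0.871%, 0.835% and 1.23% of the FPKM in circ libraries 1 to 3, against 0.760%, 0.539% and 0.482% in control libraries 1 to 3, and the groups did not overlap. ITGB2 took 86.1% ± 3.38 with circ siRNA and 88.3% ± 3.62 with control siRNA (SD, n = 3 each). ITGB1 took 11.6% ± 3.09 with circ siRNA and 9.92% ± 2.94 with control siRNA. ITGB3 took 1.36% ± 0.163 with circ siRNA and 1.22% ± 0.543 with control siRNA. These last 3 shares overlapped between the groups. ITGAV had 0.157, 0.167 and 0.185 times the summed FPKM of ITGB1, ITGB3 and ITGB8 in the circ libraries and 0.170, 0.180 and 0.178 times in the control libraries.

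With both circ library 3 and control library 1 left out, 5 of the 10 genes were called, each with 2 libraries per group. ITGB8 (log2 fold change 0.72, edgeR adjusted p = 0.000163), ITGB3 and ITGB1 were higher, against 7.38% of tested genes. ITGAM and ITGAL were lower, against 7.43% of tested genes. ITGB2, ITGAX, ITGA5, ITGAV and ICAM1 were not called, with log2 fold changes of -0.06, 0.13, -0.06, 0.15 and 0.14. This fit drops the libraries that add most spread, which were known from these data, so its calls are not independent of that choice. In the same fit 14.8% of all tested genes were called.

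**Figure D4:**
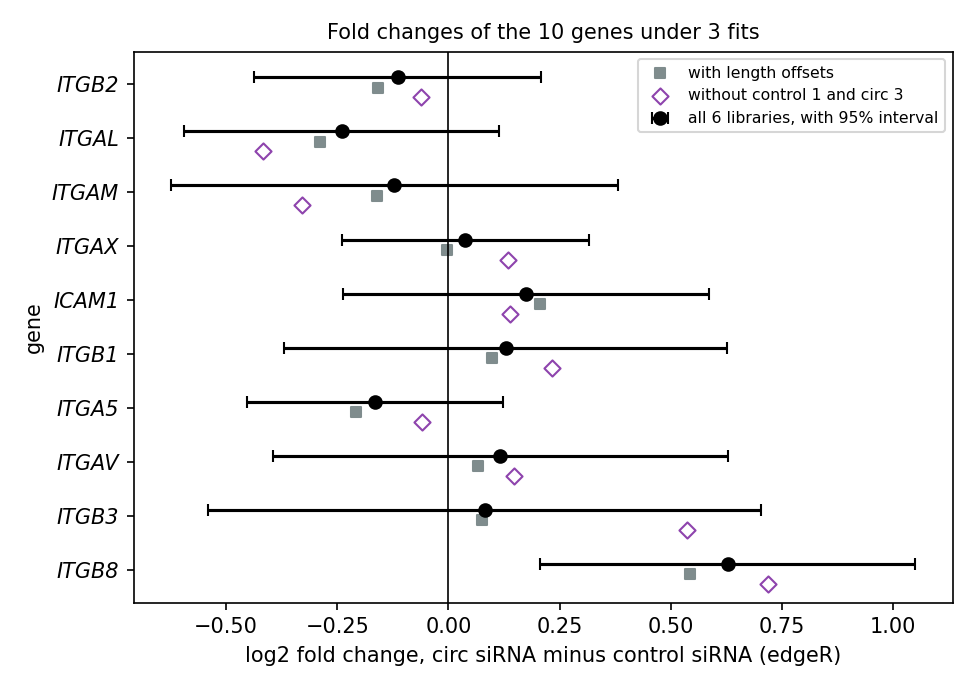
Log2 fold change (circ siRNA minus control siRNA) of the 10 genes from all 6 libraries with its 95% interval (black), with length offsets (grey squares) and without control library 1 and circ library 3 (open diamonds). The interval leaves out 0 for ITGB8 alone.

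The genes most alike to each member over the 6 libraries, by Pearson's r of log2 CPM, were picked from 12469 genes, so high values arise readily. They were F2R for ITGAL (r = 0.9949), NCAPH for ITGAM (0.9962), TOB2 for ITGAX (0.9904), ZNF394 for ITGB2 (0.9979), CDCA7L for ITGAV (0.9985), DOCK10 for ITGB3 (0.9935), RFWD3 for ITGB1 (0.9991), TMED4 for ITGA5 (0.9849), SH3KBP1 for ITGB8 (0.9968) and SDK1 for ICAM1 (0.9953). None of them is another of the 10 genes. All points share the same 6 libraries, including the 2 that stood apart.

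Of the other integrin subunits, 14 of 17 were tested and 0 were called, with 5 positive and 9 negative log2 fold changes and a median of -0.16. Groups did not overlap for 4 of them, each lower with circ siRNA: ITGAE, ITGA7, ITGA11 and ITGA3. Such lower values without overlap were found in 5.87% of tested genes. ITGAE, the chain that binds E-cadherin as a pair with ITGB7, had 9.40, 11.2 and 9.87 CPM with circ siRNA and 14.4, 14.2 and 15.9 CPM with control siRNA (log2 fold change -0.55, SE 0.14; edgeR adjusted p = 0.499). ITGA7, a laminin-binding chain, had a log2 fold change of -0.34 and ITGA11, a collagen-binding chain, of -0.40. Neither passed the threshold with all 6 libraries (edgeR adjusted p = 0.773 and 0.804). Without control library 1 and circ library 3, 3 of 14 were called, against 14.8% of tested genes: ITGAE (-0.54, edgeR adjusted p = 0.0252) and ITGA7 (-0.49, 0.0116) were lower and ITGA4 was higher (0.48, 0.0247).

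Of the other cell-surface ligands, 9 of 12 were tested and 0 were called, with 2 positive and 7 negative values and a median of -0.09. JAM2, a junctional adhesion molecule of the group that binds leukocyte integrins, had 4.58, 4.91 and 3.78 CPM with circ siRNA and 7.05, 6.96 and 6.35 CPM with control siRNA (log2 fold change -0.62, SE 0.18; edgeR adjusted p = 0.536). Its groups did not overlap, and lower values without overlap were found in 5.87% of tested genes. JAM3 lay at or below 1.05 CPM in every library. With 2 libraries per group, JAM2 (-0.48) and ICAM5 (-0.17) were not called (edgeR adjusted p = 0.101 and 0.164), and VCAM1 alone of 8 tested ligands was called, as lower. The share over all tested genes in that fit was 14.8%.

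Of the matrix and soluble ligands, 11 of 16 were tested and 0 were called, with 5 positive and 6 negative values and a median of -0.05. LRRC32 (GARP), which holds latent TGF-beta on the cell surface, had 3.43, 3.62 and 4.29 CPM with circ siRNA and 2.18, 2.17 and 2.20 CPM with control siRNA (log2 fold change 0.79, SE 0.21; edgeR adjusted p = 0.499). THBS1, thrombospondin-1, had 65.7, 62.4 and 67.4 CPM with circ siRNA and 55.8, 34.2 and 33.0 CPM with control siRNA (log2 fold change 0.67, SE 0.20; edgeR adjusted p = 0.581). In both genes all circ libraries lay above all control libraries, as for ITGB8 and for 6.64% of tested genes. NRROS, the LRRC32 relative of myeloid cells, averaged 17.8 CPM with circ siRNA and 18.5 CPM with control siRNA, and TGFB1 averaged 830.4 CPM with circ siRNA and 893 CPM with control siRNA. FBN1, a fibrillin of elastic fibres, had a log2 fold change of -0.43 with overlapping groups. With 2 libraries per group, THBS1 (0.93, edgeR adjusted p = 7.38e-05) and TGFB3 were called higher of 11 tested, and LRRC32 (0.69, edgeR adjusted p = 0.0896) was not called. The share over all tested genes in that fit was 14.8%.

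Of the inside-out activation genes, all 20 were tested and 0 were called, with 12 positive and 8 negative values and a median of 0.07. CYTH1, cytohesin-1, which binds the tail of ITGB2, had 218, 207 and 231 CPM with circ siRNA and 189, 180 and 184 CPM with control siRNA (log2 fold change 0.25, SE 0.11; edgeR adjusted p = 0.773). APBB1IP (RIAM), which links RAP1 to talin, had a log2 fold change of 0.20 (edgeR adjusted p = 0.832), and its groups did not overlap either. Higher values without overlap were found in 6.64% of tested genes. RAPGEF1, an exchange factor for RAP1, had 0.28 with overlapping groups. TLN1 and FERMT3, the talin and kindlin that bind beta tails in leukocytes, averaged 1246 and 772 CPM with circ siRNA and 1159 and 793 CPM with control siRNA. With 2 libraries per group, 5 of 20 were called, against 14.8% of tested genes. RAPGEF1 (0.38, edgeR adjusted p = 0.0104), CYTH1 (0.23, 0.0465), TLN1 (0.32, 0.0255) and DAB2 were higher and SHARPIN was lower.

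Of the outside-in signalling genes, 27 of 28 were tested and 0 were called, with 15 positive and 12 negative values and a median of 0.03. The smallest p values belonged to PTK2 (focal adhesion kinase), SRC and PARVB (beta-parvin), with log2 fold changes of 0.32, 0.22 and -0.30. Groups did not overlap for PTK2, at 16.3, 16.9 and 17.5 CPM with circ siRNA and 15.8, 12.5 and 12.5 CPM with control siRNA (edgeR adjusted p = 0.804). Higher values without overlap were found in 6.64% of tested genes. With 2 libraries per group, 7 of 27 were called, against 14.8% of tested genes. PTK2 (0.42, edgeR adjusted p = 0.041), SRC (0.33, 0.0158), LYN, TNS3 and VAV3 were higher, and PARVB (-0.41, 0.0104) and PARVG were lower. Of the integrin trafficking genes, 16 of 18 were tested and 0 were called, with 6 positive and 10 negative values and a median of -0.05. SNX17, the sorting nexin that returns beta-1 integrins to the surface, had 69.4, 75.5 and 54.0 CPM with circ siRNA and 77.3, 93.3 and 94.7 CPM with control siRNA (log2 fold change -0.42, SE 0.16; edgeR adjusted p = 0.700). ARF6 and RAB5A, small GTPases of endocytic traffic, had log2 fold changes of -0.15 and 0.20 with overlapping groups. With 2 libraries per group, SNX17 (-0.37, edgeR adjusted p = 0.0104) and ARF6 (-0.23, 0.0408) were called lower, the only calls among 16 tested. The share over all tested genes in that fit was 14.8%.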

How the data were processed

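Paired-end reads came from poly-A RNA in 6 libraries, per the labels' protocols. CASAVA, cutadapt, HISAT2 and the build GRCh38 are named, per the submitters' processing notes. Not given in the sources used here: versions, how genes were counted, strand and annotation. The authors' deposited table holds whole-number read counts and FPKM per gene, which equal count per listed length and library total (largest relative difference 5.0e-14). FPKM was used only for levels between genes.

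Counts were tested with the edgeR 4.0.16 quasi-likelihood test in R 4.3.3 (two-sided, TMM, filterByExpr with minimum count 10, group as only term, Benjamini-Hochberg over 12469 genes). Standard errors come from the F statistic. Log2 CPM for correlations used a prior count of 2. Alternatives were DESeq2 1.42.0, limma-voom 3.58.1, other scalings and filters, a replicate block, length offsets (natural spline, 4 degrees of freedom) and left-out libraries. The test was checked on simulated counts. Exon overlap came from GENCODE 29, promoters from RefSeq with 250 bases before and 50 after the start.

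The members and lists were chosen with earlier results of these data known. Named were the 10 members, up to 3 tested genes with the smallest p of each list, and the gene most alike to each member; other genes were chosen after their values were seen. Separate cultures are not stated in the labels, so each p-value measures library-to-library spread alone, possibly technical. In bulk RNA, fewer cells of a type and less RNA per cell cannot be told apart. No library pair within a group agreed within sampling noise (chi-square per gene at least 5.73). A floor of 3 counts is 0.179 to 0.203 CPM of deposited totals and covers counting error only.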

Additional observations from a re-analysis of the deposited data

How the results depend on the processing

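Over all genes, edgeR called 0 genes higher and 1 lower. The counts were 59 and 22 with DESeq2, 1 and 5 with length offsets, and 919 and 926 without control library 1 and circ library 3 together. Genes lower numbered 0 with library totals alone, limma-voom, the replicate block, length offsets with the replicate block, and each library left out in turn, and 2 without the filter. Of the 10 members, 0 were called in all of these except without those 2 libraries together, where 5 were. Correlations of same-numbered deviations were -0.165, 0.456 and -0.369, and those of unlike-numbered ones ran from -0.565 to 0.525. Control library 1 and circ library 3, which stood apart, carry different numbers, so these values cannot show whether the numbers mark shared cultures. The replicate block called 0 members, with a log2 fold change of 0.643 for ITGB8. Small values changed sign. ITGAX was -0.00297 with length offsets and -0.00558 with length offsets and the replicate block, and DOCK10 was -0.00322 with both. With each library left out, log2 fold changes ran from -0.422 to 0.0391 for ITGAM, -0.0186 to 0.111 for ITGAX, -0.0953 to 0.356 for ITGAV, -0.104 to 0.5 for ITGB3, -0.0292 to 0.387 for ITGB1, -0.930 to 0.196 for NCAPH, -0.0768 to 0.211 for TOB2, -0.126 to 0.384 for CDCA7L, -0.0555 to 0.243 for DOCK10 and -0.0395 to 0.336 for RFWD3. Of 160 member values under alternatives, 146 kept direction and side of the threshold, 9 turned sign and 5 passed the threshold anew. Of 446 values of the other named genes, 422 kept both, 12 turned sign and 12 passed it anew. For the subunit shares, leaving out 1 of 3 replicates cannot move a group mean by 1 SD. TMM scaling cancels within the shares of a library. These settings thus do not test how stable the shares are. For ITGB8 the difference in share, circ siRNA minus control siRNA, was 0.385 percentage points with all libraries. With each library left out it ran from 0.26 to 0.468. The cause of these changes was not tested. The fit of 4 libraries drops those with most spread, which were picked from these same data. With 3 libraries a group, the intervals of ITGB3, ITGAV, ITGB1 and ITGAM reach beyond 0.3 in both directions, so differences of that size were not detectable.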
